A study of Mus musculus with 6 samples.

Results

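Apba1, also called Mint1, was examined with its paralogues Apba2 and Apba3, its partners Cask, Lin7a, Lin7b and Lin7c, and its ligand App in dorsal hippocampus after knockdown of the long noncoding RNA Snhg11. These 8 genes, of 55401 genes in the count tables, were taken as a named set: Apba1 because of its lower level in the knockdown samples, the others because of their relation to it. The contrast between the groups therefore had a part in the choice, and the differences of the 8 genes are given as descriptions with no p-value. All 8 passed the filter on low counts, which left 19969 genes.

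Mint proteins are adaptors with a phosphotyrosine-binding domain and a pair of PDZ domains. Mint1 and Mint2 are neuronal, while Mint3 is found in many tissues. At presynaptic terminals, Mint1 assembles with CASK, a scaffold of the MAGUK family, and with a Lin7 protein (Veli) into a tripartite complex that links neurexins and other adhesion molecules to the vesicle fusion machinery, and Mint proteins also bind the cytoplasmic tail of the amyloid precursor protein encoded by App.

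Bulk RNA of the dorsal hippocampus was sequenced from WT littermates of Ts65Dn mice, a model of Down syndrome, at 4 months of age and 3 days after stereotaxic infusion of antisense oligonucleotides (ASO, 50 ug per hemisphere). The Control-ASO group (n = 3) received a control oligonucleotide and the Snhg11-ASO group (n = 3) one against Snhg11. Both groups were thus injected, and no uninjected animals were among the samples analysed here. The whole dorsal part of the hippocampus was used, so that all of its cell types contributed, and a lower number of cells of a type cannot be told apart from less RNA per cell. Gene-assigned read pairs per library ranged from 28951250 to 34293344 with Control-ASO and from 38556524 to 43997537 with Snhg11-ASO. Every Snhg11-ASO library was thus deeper than every Control-ASO library.

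The targeted RNA was checked first. Snhg11 was at 551, 436 and 209 CPM (read pairs scaled to equal library size with TMM factors) with Control-ASO and at 139, 65.4 and 69.4 CPM with Snhg11-ASO, a log2 fold change of -2.13 (SE 0.43). The groups did not overlap, but the adjusted p was 0.395 with edgeR's quasi-likelihood test and 6.25e-05 with DESeq2. Snhg11-ASO replicate 1 stood apart from the other libraries, with Spearman correlations of 0.955 to 0.96 against 0.979 to 0.991 among all other pairs, and values of the members without it are given beside them. All 6 libraries held transcripts of the Y-linked gene Ddx3y (2015 to 3641 read pairs) and almost none of Xist (1 to 7 read pairs), so the X-linked gene Cask was compared among libraries with the pattern of males.

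Apba1 (ENSMUSG00000024897; GRCm38 chr19:23758887-23949596, + strand) spans 190710 bp with 6885 bp of merged exons, and its longest annotated transcript has 13 exons. The RefSeq promoter windows (GRCm38.p6, 300 bases each, most of them upstream of the RefSeq start) of Apba1 and of both paralogues are shown. The GC box hexamer GGGCGG and its reverse complement CCGCCC are in capitals. They lie on the + strand at chr19:23758626-23758925 for Apba1, chr7:64501456-64501755 and chr7:64501888-64502187 for the pair of starts of Apba2, and chr10:81267922-81268221 for Apba3.

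Apba1: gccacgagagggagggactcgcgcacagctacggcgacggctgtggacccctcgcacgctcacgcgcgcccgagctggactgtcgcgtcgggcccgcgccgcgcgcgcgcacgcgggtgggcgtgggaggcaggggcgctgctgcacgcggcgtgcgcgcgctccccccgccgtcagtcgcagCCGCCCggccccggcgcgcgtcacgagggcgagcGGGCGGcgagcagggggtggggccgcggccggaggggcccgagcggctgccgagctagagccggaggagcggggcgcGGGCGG
Apba2, first start: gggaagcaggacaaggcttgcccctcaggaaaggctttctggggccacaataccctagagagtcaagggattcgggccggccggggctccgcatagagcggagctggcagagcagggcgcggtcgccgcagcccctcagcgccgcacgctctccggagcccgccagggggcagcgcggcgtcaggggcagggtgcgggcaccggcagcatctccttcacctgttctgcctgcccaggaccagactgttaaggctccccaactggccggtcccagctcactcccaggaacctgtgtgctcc
Apba2, second start: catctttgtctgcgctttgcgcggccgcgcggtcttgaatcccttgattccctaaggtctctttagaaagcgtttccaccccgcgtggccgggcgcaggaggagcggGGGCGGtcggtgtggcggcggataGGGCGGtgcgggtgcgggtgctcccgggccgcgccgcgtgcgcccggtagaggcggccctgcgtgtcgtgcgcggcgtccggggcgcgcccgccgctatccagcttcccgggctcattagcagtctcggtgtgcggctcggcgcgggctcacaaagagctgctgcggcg
Apba3: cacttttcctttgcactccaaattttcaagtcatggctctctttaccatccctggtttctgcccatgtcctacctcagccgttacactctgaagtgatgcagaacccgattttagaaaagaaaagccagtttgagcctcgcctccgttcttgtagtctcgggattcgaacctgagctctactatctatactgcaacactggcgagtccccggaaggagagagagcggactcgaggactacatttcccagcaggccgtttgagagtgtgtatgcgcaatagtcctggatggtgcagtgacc

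The Apba1 window was 82.0% GC with 57 CpG dinucleotides and 3 GC boxes, and its CpG number was at percentile 99.8 of 32851 mouse promoter windows of this length, whose median was 7. The first Apba2 window had 20 CpG dinucleotides and 0 GC boxes, and the second had 45 and 2. The Apba3 window was 50.3% GC, had 12 CpG dinucleotides and held 0 GC boxes. It lies wholly inside the gene annotated from chr10:81266960, so the sequence at that start is not described. The second Apba2 window likewise lies inside its gene, which is annotated from chr7:64501706. For the other members, Lin7a had 18 and 21 CpG dinucleotides at its pair of starts, Lin7b 15, Lin7c 26 and App 30. Their GC boxes numbered 3 for Lin7b, as for Apba1, 1 at each start of Lin7a, 1 for App and 0 for Lin7c. The hexamer occurred on either strand in 35.66% of all windows. No window of the members held the cAMP response element TGACGTCA, the box TATAAA or the E-box CACGTG. For Cask no promoter window was given in the table used.

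In the control hippocampus, App was the most abundant member per length and Apba3 the least. Levels are compared here as CPM per kilobase of merged exons. App was at 58.9 ± 3.87 (SD, n = 3) and Apba2 at 47.3 ± 2.54, and their ranges did not overlap. Lin7c followed at 25.0 ± 1.81 and Apba1 at 21.6 ± 1.83, and this pair of neighbours overlapped. Below them came Lin7b at 16.8 ± 2.16, Cask at 9.63 ± 0.394, Lin7a at 6.27 ± 1.02 and Apba3 at 4.12 ± 0.21, with no overlap between neighbours. The place of Lin7b depended on the length used, since dividing by the longest annotated transcript put it at 33.4, above Lin7c at 26.7 and Apba1 at 22.5.

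Apba1 was lower in every Snhg11-ASO sample than in every Control-ASO sample. Its level was 163, 144 and 139 CPM with Control-ASO (from 4795, 4854 and 4684 read pairs) and 85.2, 83.3 and 77.7 CPM with Snhg11-ASO (3250, 3480 and 3393 read pairs). The groups were separated by 53.8 CPM, while the samples within a group lay close together, with means of 149 ± 12.6 and 82.1 ± 3.9 CPM (SD, n = 3 each). The knockdown mean was 55.2% of the control mean, a log2 fold change of -0.86 (SE 0.095), which was the 432nd lowest of the 19969 genes tested. Counting error was at most 1.75% of a value in any library.

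The difference of Apba1 stayed within a narrow range across the processing alternatives, from -0.91 to -0.77 on the log2 scale over 16 of them. Without Snhg11-ASO replicate 1 it was -0.89. Fold changes in these libraries differed slightly with genomic span, with a median of 0.01 for 10776 genes under 20 kb and -0.05 for 2105 genes of 100 to 400 kb, and Apba1 belongs to the long genes. After a correction for span its log2 fold change was -0.77. Pairs on the opposite strand were 0.0625% to 0.52% of its total. An antisense gene, AC148021.1, shares 289 bp with Apba1 exons, and it held 0 to 3 read pairs per library.

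**Figure D1:**
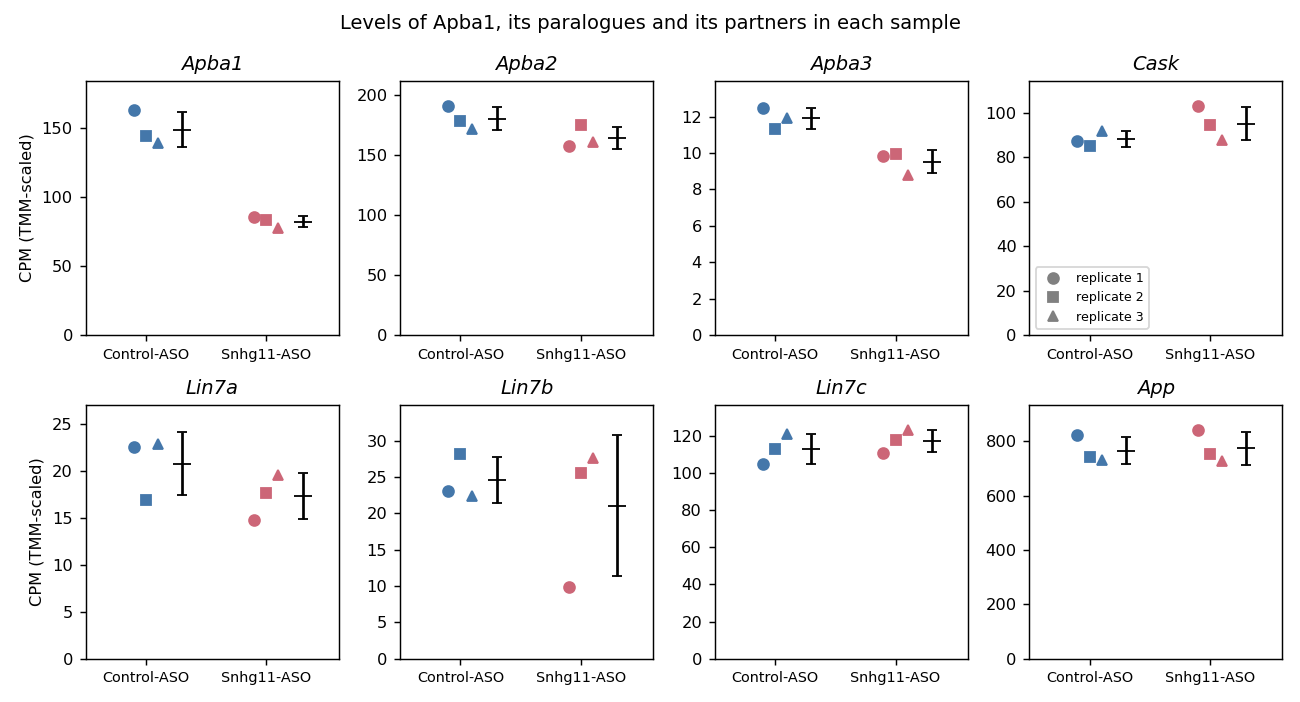
Level of each of the 8 genes in CPM (y axes start at 0) in the 3 Control-ASO (blue) and 3 Snhg11-ASO samples (red), with the symbol giving the replicate and the black bar the mean ± SD. The groups are apart in Apba1 and Apba3 and overlap in the other 6 genes.

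The paralogues differed from Apba1 in the size of the difference. Apba2 (Mint2; ENSMUSG00000030519, chr7:64501706-64753878, + strand), the other neuronal Mint, was at 191, 179 and 172 CPM with Control-ASO and at 158, 175 and 161 CPM with Snhg11-ASO. The ranges overlapped by a small margin, since 1 Snhg11-ASO sample exceeded the lowest control. Its mean was 91.0% of control (181 ± 9.71 against 165 ± 9.48 CPM), with a log2 fold change of -0.14 (SE 0.088), and of -0.10 without Snhg11-ASO replicate 1.

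Apba3 (Mint3; ENSMUSG00000004931, chr10:81266960-81273246, + strand), the widely expressed paralogue, was at 12.5, 11.3 and 11.9 CPM with Control-ASO and at 9.86, 9.93 and 8.79 CPM with Snhg11-ASO. The groups did not overlap and were 1.37 CPM apart. Its mean was 80.1% of control, with a log2 fold change of -0.32 (SE 0.13), and of -0.35 without Snhg11-ASO replicate 1. This gene rested on as few as 368 read pairs in a library, the fewest of any member, for which counting error is 5.21%. Its exons share 91 bp with the microRNA gene Mir3057 on the same strand, which was at 0 read pairs in all libraries, and 40 bp with Tjp3 on the opposite strand.

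Summed over the 3 Mint genes, the level per kilobase was 78.0, 71.6 and 69.4 CPM with Control-ASO and 57.0, 61.4 and 56.3 CPM with Snhg11-ASO, or 79.8% of control in the mean. Apba1 made up 29.6% ± 0.664 (SD, n = 3) of this sum in Control-ASO and 20.5% ± 1.08 in Snhg11-ASO. The share of Apba2 was 64.8% ± 0.593 and 73.9% ± 1.35, and that of Apba3 5.65% ± 0.255 and 5.66% ± 0.298. The share of Apba2 was higher although its mean level was 91.0% of control. These shares rest on the lower level by which Apba1 was chosen.

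**Figure D2:**
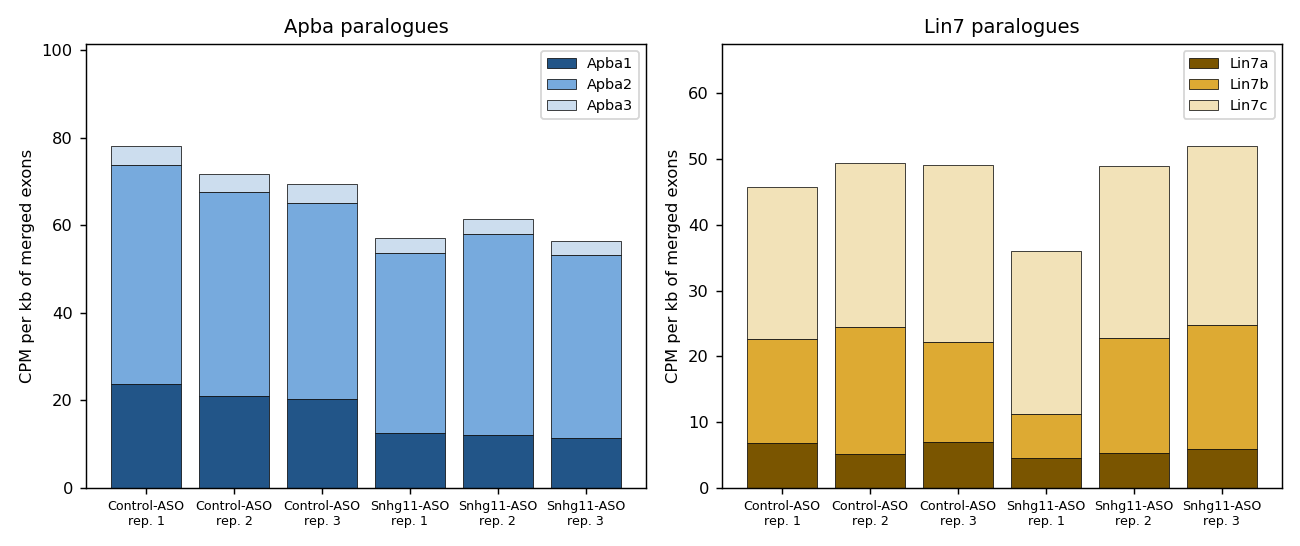
Stacked levels of the Apba (left) and Lin7 (right) paralogues in CPM per kilobase of merged exons (y axes) in each of the 6 samples (x axes). The dark Apba1 segment is shorter in all 3 Snhg11-ASO samples, and the Lin7b segment is shorter in Snhg11-ASO replicate 1.

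Of the partners in the tripartite complex, Cask was not lower. Cask (ENSMUSG00000031012, chrX:13517080-13851367, - strand), the MAGUK scaffold, was at 87.2, 85.0 and 92.0 CPM with Control-ASO and at 103, 94.6 and 88.0 CPM with Snhg11-ASO. The ranges overlapped and the mean was 108% of control, with a log2 fold change of 0.11 (SE 0.091) and of 0.05 without Snhg11-ASO replicate 1. It is the longest of the 8 genes at 334288 bp, and the correction for span gave 0.29.

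The Lin7 proteins are small PDZ adaptors that join CASK and Mint1 through an L27 domain, and the 3 genes differed in level and in spread. Lin7a (ENSMUSG00000019906, chr10:107271686-107421474, + strand) was at 22.5, 16.9 and 22.9 CPM with Control-ASO and at 14.8, 17.6 and 19.6 CPM with Snhg11-ASO. These ranges overlapped, with a log2 fold change of -0.26 (SE 0.17), which was -0.16 without Snhg11-ASO replicate 1. Leaving out Control-ASO replicate 2, the lowest control, gave -0.39.

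Lin7b (ENSMUSG00000003872, chr7:45367891-45370583, - strand) was at 23.1, 28.2 and 22.4 CPM with Control-ASO and at 9.91, 25.6 and 27.6 CPM with Snhg11-ASO. Replicate 1 alone was low, and the other Snhg11-ASO samples lay within the control range. The log2 fold change was -0.22 (SE 0.36) with all libraries and 0.12 without Snhg11-ASO replicate 1, so no direction was given for Lin7b. Its exons share 299 bp with the opposite-strand gene Gm45619 and 58 bp with Mtag2, and counting without regard to strand gave a control level of 8.15 CPM per kilobase in place of 16.8.

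Lin7c (ENSMUSG00000027162, chr2:109890853-109901003, + strand), the most abundant Lin7 gene per length of merged exons, was at 105, 113 and 121 CPM with Control-ASO and at 111, 118 and 123 CPM with Snhg11-ASO. The ranges overlapped almost fully, with a log2 fold change of 0.05 (SE 0.09), and of 0.09 without Snhg11-ASO replicate 1. It made up 50.7% to 54.7% of the summed Lin7 level per kilobase in Control-ASO and 58.1% ± 9.18 (SD, n = 3) in Snhg11-ASO, where replicate 1 had the highest share at 68.6%.

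App (ENSMUSG00000022892, chr16:84949685-85173766, - strand), the precursor of amyloid-beta, was at 823, 742 and 731 CPM with Control-ASO and at 843, 752 and 729 CPM with Snhg11-ASO. The groups overlapped over nearly their whole range, with means of 765 ± 50.3 and 775 ± 60.4 CPM and a log2 fold change of 0.02 (SE 0.11), which was -0.05 without Snhg11-ASO replicate 1. In both groups replicate 1 had the highest App level. Lin7c and App changed sign under 3 and 4 of the 16 alternatives, each time with values close to 0.

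**Figure D3:**
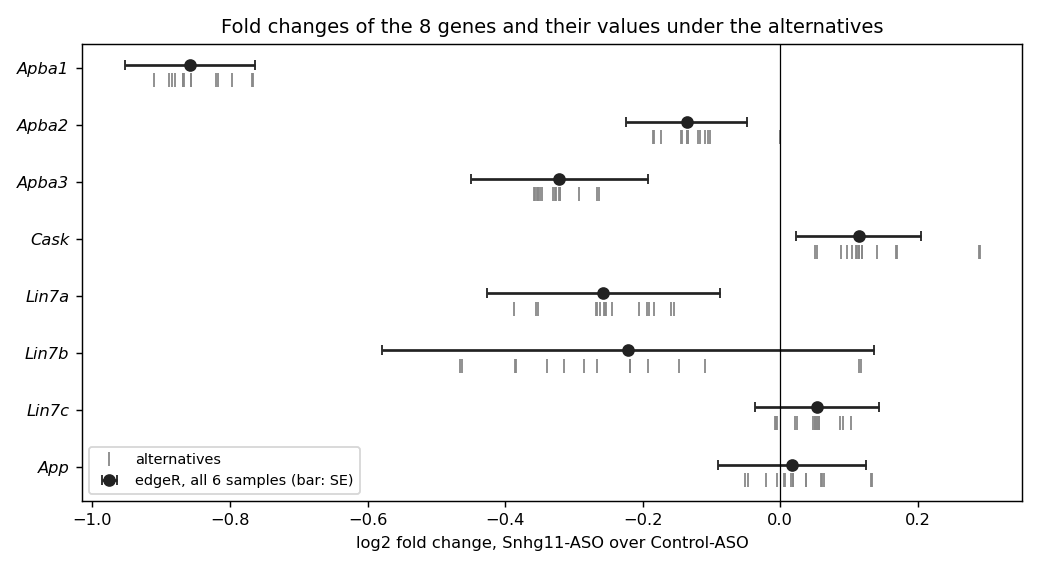
Log2 fold change of Snhg11-ASO over Control-ASO (x axis) for each of the 8 genes, with SE bars from the edgeR fit on all 6 samples (black) and values under the 16 alternatives (grey ticks). Apba1 lies between -0.91 and -0.77 in every alternative, apart from the values of the other 7 genes.

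Counted over the set, 5 members had a log2 fold change below 0 and 3 above, where 48.3% of all genes tested were below 0. The median was -0.18 over all 8 and -0.14 over the 7 other than Apba1, against 0.01 over all genes. Groups did not overlap for 2 members, Apba1 and Apba3, both lower, which was the case in this direction for 7.7% of all genes. With edgeR 0 members and 0 of the 19969 genes passed an adjusted p of 0.05, the smallest being 0.237, while 1619 genes (8.11%) had an unadjusted p under 0.05. With DESeq2, 258 genes (1.29%) passed, 0.796% lower and 0.496% higher, and 1 of them was a member, Apba1. It also passed with DESeq2 without Snhg11-ASO replicate 1, 2 or 3, where 1.72%, 1.35% and 1.1% of all genes passed. Since Apba1 was chosen on this contrast, these calls describe the choice and are no independent evidence.

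The contrast between Apba1 and its partners was also given within each sample, which cancels the library size. The ratio of Apba1 to App was 0.198, 0.195 and 0.19 with Control-ASO and 0.101, 0.111 and 0.107 with Snhg11-ASO. It varied little within groups, and the knockdown mean was 54.7% of control. The ratio of Apba1 to Cask was 1.87, 1.7 and 1.51 with Control-ASO and 0.826, 0.88 and 0.883 with Snhg11-ASO. Relative to Lin7c the mean ratio was 1.33 ± 0.208 and 0.701 ± 0.0658, and relative to Apba2 it was 0.822 ± 0.0257 and 0.5 ± 0.0359. The ratios to Apba3 (69.0% of control) and Lin7a (66.0% of control) were also lower without overlap. Only the ratio to Lin7b overlapped, at 8.6 in Snhg11-ASO replicate 1 and at 3.25 and 2.81 in the other Snhg11-ASO samples, against 5.12 to 7.05 in the controls.

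Levels of cell type markers were set beside these values. Of 9 marker lists with 45 genes in all, 0 had summed levels that were apart between the groups, and no marker was at 0 in any library. Neuronal markers summed to 3660 to 3840 CPM in Control-ASO and 3190 to 3830 CPM in Snhg11-ASO, with 5 of 6 genes at a log2 fold change below 0 and a median of -0.16. Dentate granule cell markers summed to 228 to 284 and 274 to 329 CPM. Markers of the choroid plexus, a tissue next to the hippocampus, summed to 36.1 to 1880 CPM in Control-ASO and 67.0 to 1290 CPM in Snhg11-ASO. The part of cell composition in the difference of Apba1 was not tested.

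The further partners of these proteins were read from 4 lists of 73 genes, all of which passed the filter. With edgeR 0 of the 73 passed an adjusted p of 0.05, and with DESeq2 1 did, where 1.29% of all genes passed with DESeq2. An unadjusted p under 0.05 was found for 12 genes (16.4%), of which 10 had lower and 2 higher levels, where the share of all genes was 4.43% lower and 3.68% higher. Their median log2 fold change was -0.05. After the correction for span the count was 7 (9.59%), where 7.48% of all genes had such a p, and without Control-ASO replicate 3 it was 6 (8.22%), against 4.62% of all genes. With that correction the share in the lists was thus close to that of all genes.

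Among the 10 partners in vesicle fusion, 1 had an unadjusted p under 0.05. This was Stx1a, a syntaxin of the presynaptic membrane, at 39.4, 35.8 and 50.1 CPM with Control-ASO and at 30.7, 30.8 and 30.9 CPM with Snhg11-ASO. The knockdown samples lay below all controls (log2 fold change -0.44, SE 0.14; unadjusted p = 0.016, adjusted p = 0.535 with edgeR).

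The CASK and Lin7 surface and scaffold partners held most of the low values. Of 29 genes, 6 were lower and 1 higher at an unadjusted p under 0.05, with a median log2 fold change of -0.09. Nrxn3, a neurexin whose tail is bound by CASK, was at 278, 328 and 237 CPM with Control-ASO and at 192, 186 and 142 CPM with Snhg11-ASO. Its log2 fold change was -0.70 (SE 0.16; adjusted p = 0.0221 with DESeq2, 0.452 with edgeR), and -0.23 after the correction for span. Nrxn3 is a very long gene that spans 1612.1 kb. Nrxn2 had a log2 fold change of -0.26 (SE 0.12), and Caskin1, a CASK-binding scaffold, one of -0.19 (SE 0.16).

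The synaptic adhesion molecules Cadm1 (-0.70, SE 0.20) and Cadm2 (-0.49, SE 0.16) had lower levels without overlap, with adjusted p of 0.507 and 0.55 with edgeR, and Cadm2 was at -0.13 after the correction for span and at -0.29 without Control-ASO replicate 2. Tbr1, a transcription factor that CASK binds, had a log2 fold change of -0.62 (SE 0.18), and Dlg1, a MAGUK scaffold, one of -0.36 (SE 0.15; adjusted p = 0.596 with edgeR), which was -0.19 without Control-ASO replicate 3. Sdc4, a syndecan, was higher at 356, 100 and 107 CPM with Snhg11-ASO against 75.7, 86.0 and 88.3 CPM with Control-ASO. Replicate 1 gave most of this difference, and the log2 fold change of 1.17 became 0.31 without it.

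Of 20 genes of the APP family and APP adaptors, 2 were lower and 0 higher at an unadjusted p under 0.05. These were the calsyntenins Clstn1 (log2 fold change -0.25, SE 0.089; adjusted p = 0.563 with edgeR) and Clstn3 (-0.27, SE 0.11; adjusted p = 0.592; -0.18 without Snhg11-ASO replicate 1), which bind APP through Mint2. The App paralogues Aplp1 and Aplp2 were at 99.0% and 92.7% of control, and the adaptor Apbb1 (Fe65) at 96.6%.

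The last list held 14 genes for cargo channels, a motor and small GTPases related to Mint1 and Lin7. Of these, Kcnj12, an inward-rectifier potassium channel, was lower and Arf4, a small GTPase of vesicle budding, higher at an unadjusted p under 0.05. Their log2 fold changes were -0.84 (SE 0.27) and 0.34 (SE 0.12), with adjusted p of 0.543 and 0.562 with edgeR. Kcnj12 was at 5.11 CPM or less in all libraries. Kif17, the kinesin that carries the Mint1 complex with NMDA receptors along dendrites, had a log2 fold change of 0.15 (SE 0.28), and its cargo Grin2b one of -0.22 (SE 0.19), or 0.01 after the correction for span. With all libraries and no correction for span, none of the 73 genes had a lower log2 fold change than Apba1. Kcnj12 was below Apba1 after that correction (-0.86 against -0.77). It was also below Apba1 without Control-ASO replicate 1 (-0.98 against -0.80), Control-ASO replicate 2 (-0.96 against -0.88) or Snhg11-ASO replicate 3 (-0.93 against -0.82). Without Control-ASO replicate 3 Kcnj12 was at -0.56. Cadm1 was below Apba1 as well without Control-ASO replicate 2 (-0.90 against -0.88).

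**Figure D4:**
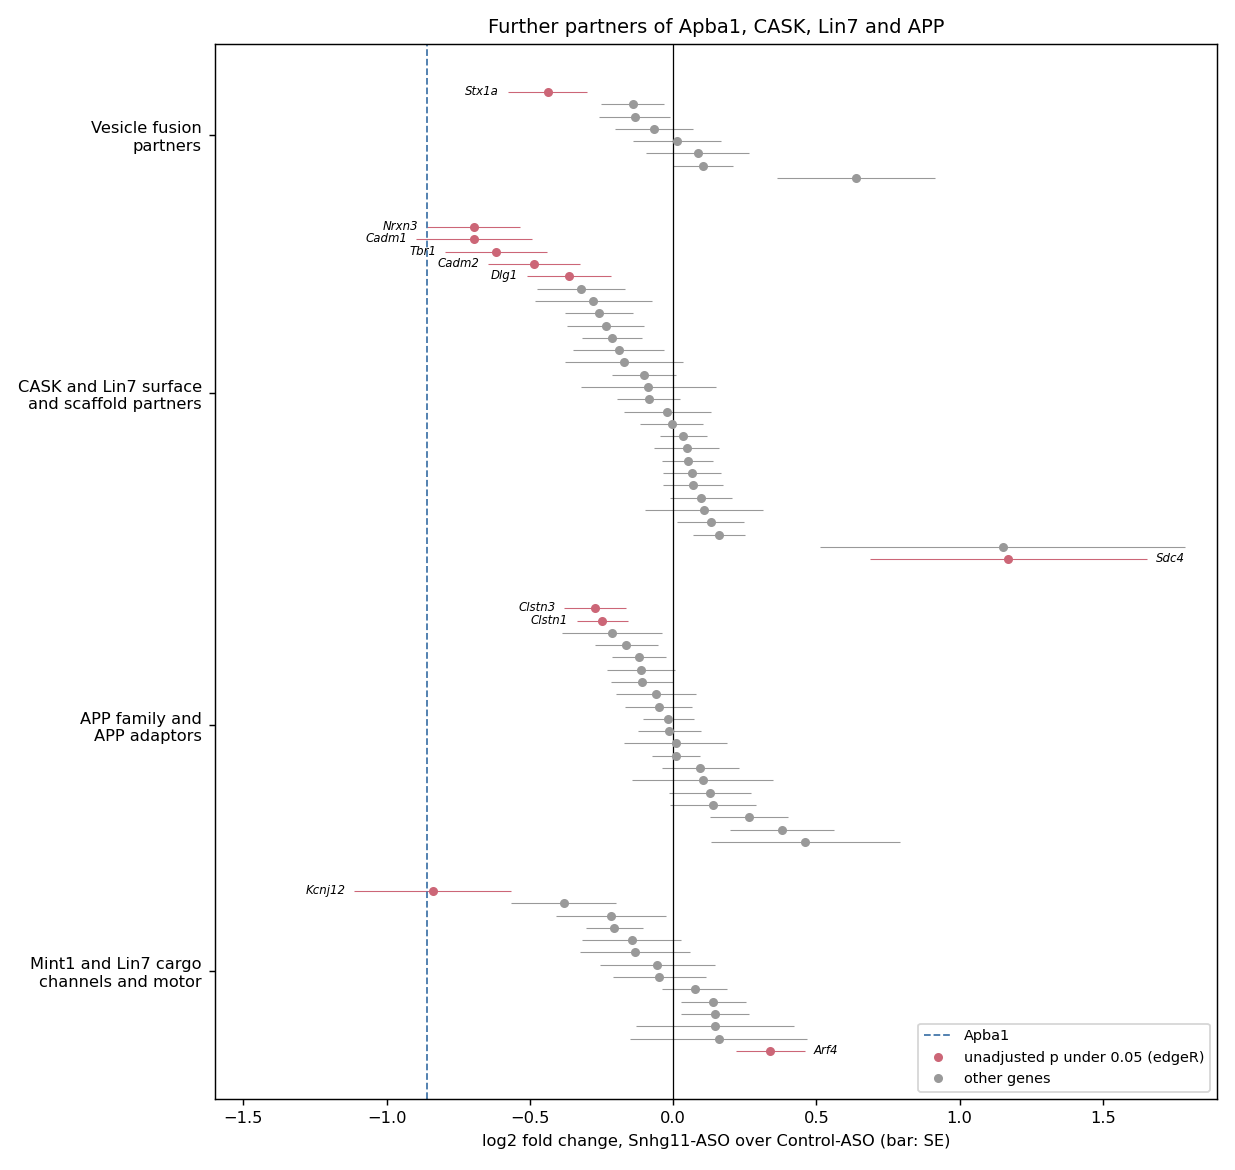
Log2 fold change of Snhg11-ASO over Control-ASO (x axis, bars give SE) for 70 of the 73 further partners in 4 lists (y axis), sorted within each list. Genes in red had an unadjusted p under 0.05 with edgeR, and the dashed line marks Apba1 at -0.86.

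Genes with a pattern like that of Apba1 were ranked by the Pearson correlation of log2 CPM over the 6 samples, among 11935 genes with a mean of at least 5 CPM. These points share their libraries and depth, and the difference between the groups makes up most of each pattern. The most alike were Macrod2 (r = 0.9929), Grid1 (0.9909), Gm43829 (0.9897), Gm37880 (0.989) and Gm43321 (0.9874). Grid1, which encodes a glutamate receptor delta subunit, was at 69.5, 63.4 and 51.6 CPM with Control-ASO and at 27.4, 27.0 and 21.1 CPM with Snhg11-ASO. Macrod2 and Grid1 span 1997.7 and 763.3 kb. Among the members, Apba3 had the pattern nearest to Apba1 (r = 0.9557, place 54), followed by Apba2 (0.7908, place 594), while App was at 0.0631 and Cask at -0.5531. This order rests on the contrast by which Apba1 was chosen. With the group means removed, the member with the highest correlation with Apba1 was App (r = 0.871), ahead of Apba3 (0.758) and Apba2 (0.626). Lin7c was at -0.949. These values rest on 6 samples, 3 in each group. Snhg11 was at 0.9363 over all samples, place 101.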

How the data were processed

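Dorsal hippocampus total RNA from 3 Control-ASO and 3 Snhg11-ASO mice was made into stranded libraries (TruSeq Stranded Total RNA). The authors deposited raw counts of read pairs per gene for each sample, aligned with STAR 2.5.2a to GRCm38 (mm10), as named in the submitters' processing notes. The files hold STAR's own gene counts, while the study's methods name Rsubread. They hold counts without strand and for each strand, of which those of the reverse strand were used. Summary lines naming no gene held 43.5% to 51.4% of pairs and were left out. Pairs on several genes or places are not counted, which lowers overlapping genes. GENCODE M21 matched 55141 of 55401 identifiers.

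Genes were filtered with filterByExpr (minimum count 10), scaled by TMM and fitted with edgeR 4.0.16 in R 4.3.3, with Benjamini-Hochberg adjustment over 19969 genes and a threshold of 0.05. Standard errors were taken as the size of a fold change over the root of its F value. Correlations used log2 CPM with a prior count of 2. The study left out 1 Snhg11-ASO sample that it does not name. All are kept here, and each was left out in turn. DESeq2 1.42.0, its size factors, no filter, both strands, a loess correction for genomic span and a replicate block were other alternatives. The deviations of samples with the same number correlated at 0.297, 0.179 and 0.103, and samples with different numbers were not compared in this way. The sample titles number the replicates but state no pairing. The main fits held no replicate block, which was used only as an alternative. The members and lists were chosen with earlier results of these data known. Named genes are the members, Snhg11, 12 fixed partners (not all reported here), the listed partners with the smallest unadjusted p under 0.05 whose groups did not overlap, and the 5 genes most like Apba1. The scripts were tested on simulated data.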

Additional observations from a re-analysis of the deposited data

How the results depend on the processing

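The log2 fold change of Apba1 stayed negative under all 16 alternatives, and leaving out each replicate gave -0.91 to -0.80. With the replicate block it was -0.86, and edgeR called 0 genes with the block as without it. DESeq2 was not run with the block, so its calls have no blocked value. The number of genes past an adjusted p of 0.05, 0 with edgeR on all libraries, was 258 with DESeq2 and 0 to 2 with edgeR when a replicate was left out. DESeq2 gave 347, 275 and 223 genes without Snhg11-ASO replicates 1, 2 and 3, from 20226, 20376 and 20362 genes tested. The cause of this difference between the tools was not tested.

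The correction for genomic span gave log2 fold changes of 0.00 for Apba2 (-0.001 with the replicate block), 0.29 for Cask (0.289 with the block) and 0.13 for App (0.132 with the block). The distance of Apba1 from the median of the other 7 genes, -0.72, was -0.84 without Snhg11-ASO replicate 1 with either tool and -0.84 to -0.69 when a replicate was left out with edgeR. The 12 partners at an unadjusted p under 0.05 became 7 with the correction for span and 19 with DESeq2 without Snhg11-ASO replicate 1, and they ranged from 6 to 16 when a replicate was left out. Without Control-ASO replicate 3 there were 6. Counting both strands gave 19.6 CPM per kilobase for Apba1 in Control-ASO, against 21.6. The causes were not tested. Counting error at the lowest count of Apba3, 5.21%, was about as large as the spread of its Control-ASO samples (CV 5.1%). The CV of its Snhg11-ASO samples was 6.68%.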
